A study of Danio rerio with 80 samples.

Results

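The AP-1 transcription factors of the fos and jun families were followed in the adult zebrafish brain, gene by gene and fish by fish. The 9 members were found by their symbols in the deposited expression table, which lists 23473 entries: the 5 fos family genes fosaa, fosab, fosb, fosl1a and fosl2, and the 4 jun family genes jun, junba, junbb and jund. All 9 were present. Of these, 6 passed the level needed for a test across all genes (fosab, fosl2, jun, junba, junbb and jund) and 3 lay below it (fosaa, fosb and fosl1a), so the latter are given by their values and by tests on single genes. A further jun family entry, june, and a further fos family entry, fosl1b, are not among the 9.

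AP-1 is a dimer of basic leucine zipper proteins that binds DNA at short palindromic sites. Jun proteins pair with each other or with Fos proteins, whereas Fos proteins need a Jun partner. In neurons, transcripts of several of these genes appear within minutes of calcium entry and MAP kinase signalling and decay soon after, which is why they serve as markers of recent activity. In rodents a short form of FosB is long-lived, and JunD is held at steady levels in many cells.

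Whole brains of wild type AB zebrafish were sequenced singly as poly-A RNA. The fish had been exposed from 6 to 96 hours after fertilisation, and all media, the control's included, held dimethyl sulfoxide at 0.1%. The 5 conditions were control (solvent only), a mixture of persistent organic pollutants at 10 times (POP10) or 70 times (POP70) the human blood levels it imitates, and perfluorooctane sulfonic acid alone at 0.3 mg/L (PFOS10) or 2.06 mg/L (PFOS70). Each condition had 4 exposure replicates, numbered 3 to 6, with 2 females and 2 males each, which gives 16 fish per condition, 20 per number and 80 in all. Age at sampling was 240 days in number 3, 233 in number 4, 226 in number 5 and 219 in number 6, so that age, sampling day and number cannot be told apart. The 4 fish of an exposure replicate share their exposure, so a p-value over fish reflects how single fish vary.

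Libraries held 9.01 to 20.3 Mreads (1 Mread is 1000000 reads; median 12.1), and a gene at 10 reads per Mread on the deposited scale (RPM) had 71.2 to 144 reads. The 17 listed neuron markers were all measured and summed to between 14939 and 20410 RPM per brain. The 8 pituitary markers summed to at most 34.6 RPM and the 12 neutrophil and lymphocyte markers to at most 43.8 RPM. Markers of other tissues varied widely between brains. Those of retina and pineal summed to 10.7 to 486 RPM, and those of skin, bone and cartilage to 110 to 1575 RPM. Red cell markers summed to 246 to 3319 RPM. The 4 PFOS70 fish of number 5 stood apart from their number in the clock gene nr1d1, with a mean log2 value of 7.62 where the other 4 conditions of number 5 had 3.26 to 3.52 and the 5 conditions of number 3 had 6.71 to 7.43. Results that change without these 4 fish are given both ways. RNA of whole brains cannot tell fewer cells expressing a gene from less RNA per cell.

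The coordinates below are of GRCz11, as deposited. The gene fosab (chromosome 20, 46552311 to 46554440, minus strand) encodes a c-Fos protein and ranged from 7.58 to 264 RPM with a median of 26.2. It lies inside the entry si:ch211-153j24.3 on the opposite strand, and whether reads were counted by strand is not stated. The gene fosaa (chromosome 17, 50228998 to 50234004, minus strand), the other c-Fos gene, ranged from 0 to 11.7 RPM with a median of 1.45. The gene fosb (chromosome 18, 36769758 to 36774965, plus strand), the FosB gene, ranged from 0 to 52.6 RPM with a median of 0.905, so its highest fish stood 58.2 times above the median. The gene fosl1a (chromosome 14, 30739476 to 30747686, minus strand), which encodes Fra-1, ranged from 1.20 to 19.9 RPM around a median of 3.17. The gene fosl2 (chromosome 17, 41302660 to 41318547, plus strand), which encodes Fra-2, ranged from 38.9 to 118 RPM around 61.2, the narrowest relative range of the 5 fos genes. No sequence is printed and levels are not compared between genes, since transcript lengths were not used here.

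On the jun side, jun (chromosome 20, 15552657 to 15554606, plus strand), the c-Jun gene, ranged from 74.8 to 334 RPM around a median of 160. The pair of JunB genes differed in spread, in large part through 1 fish at 0 junbb reads. The gene junba (chromosome 1, 51732979 to 51734535, minus strand) ranged from 13.8 to 151 RPM around 38.8, and junbb (chromosome 3, 7654655 to 7656059, minus strand) from 0 to 625 RPM around 141. The next lowest fish had 35.7 RPM of junbb. The gene jund (chromosome 2, 56125174 to 56131312, minus strand), the JunD gene, ranged from 135 to 400 RPM around 242. Members whose highest fish was under 3 times the median were fosl2, jun and jund, and those in which it was over 3 times the median were all others.

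The first comparison asks whether the early exposure left the adult level of a member higher or lower than in control. None of the 6 tested members was called in any of the 4 exposures over both sexes at an adjusted p under 0.05 (limma, Benjamini-Hochberg over 10231 genes). This fit left out the number. With the number as a block none was called either, and the lowest adjusted p was 0.122, for fosab in POP10 (limma). The background was as thin: of all tested genes POP10 called 0.0195%, PFOS10 0.00977%, and the higher exposures POP70 and PFOS70 0% each. By unadjusted p under 0.05, POP10 set apart 1 member and 3.96% of all tested genes, POP70 4 members and 1.55%, PFOS10 2 members and 10.5%, and PFOS70 0 members and 5.51%. The 1 member in POP10 was fosab, those in POP70 were fosab, fosl2, junba and jund, and those in PFOS10 were fosab and jund. All of these were higher than in control. In a fit without 1 POP70 female at 0 junbb reads, junbb in POP10 also passed, with an unadjusted p of 0.0178 (limma). The plot of all fish by condition shows the overlap.

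**Figure D1:**
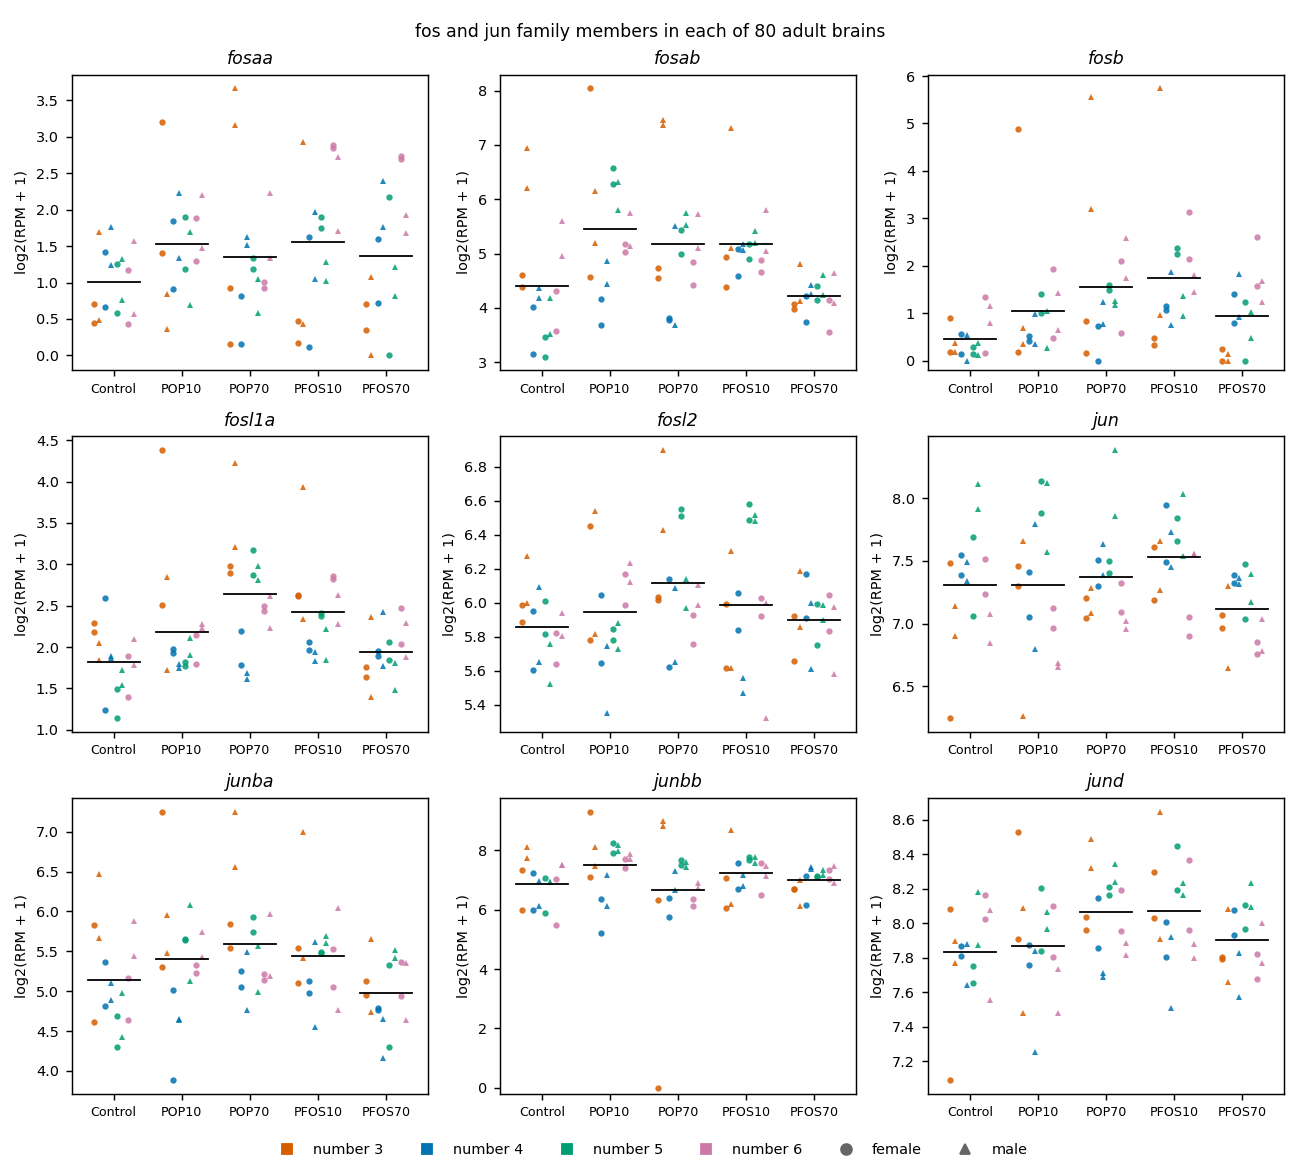
Level of each of the 9 members in each of the 80 fish, as log2(RPM + 1), by condition; colour gives the exposure replicate number, shape the sex and the black line the mean of 16 fish. Every panel shows overlapping conditions, the highest fish of fosaa, fosab, fosb, fosl1a, fosl2, junba, junbb and jund are fish of number 3, and 1 POP70 fish lies at 0 for junbb.

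For fosab the 16 control fish ran from 7.58 to 123 RPM with a median of 17.9. POP10 fish ran from 11.8 to 264 RPM with a median of 35.4, POP70 fish from 11.9 to 176 with 32.2, PFOS10 fish from 19.8 to 158 with 32.8, and PFOS70 fish from 10.8 to 26.9 with 17.1. All 5 groups overlap, and PFOS70 is both the lowest and the narrowest, with a standard deviation of 0.34 on the log2 scale against 1.12 in control. On the log2 scale the difference from control was 1.08 ± 0.30 (SE) in POP10, with an adjusted p of 0.453, or 0.122 with the number as a block (limma). It was 0.79 ± 0.30 in POP70 and 0.80 ± 0.30 in PFOS10, with adjusted p of 0.9999 and 0.456. In PFOS70 it was -0.19 ± 0.30 with all fish and 0.19 ± 0.26 without number 3. Within the 4 numbers the POP10 difference lay between 0.38 and 2.79 and was positive in 4 of 4, and so it was in POP70, between 0.28 and 1.96. In PFOS10 it was positive in 3 of 4 numbers, from -0.10 to 1.70. Over means of 4 fish, an exact permutation test, two-sided, gave p = 0.143 for POP10 (n = 4 against 4), 0.229 for POP70 and 0.171 for PFOS10, where 0.0286 is the smallest that this design allows.

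Whether fosab was called turned on the fit. Among all 5 conditions at once it had an adjusted p of 0.0815 (limma's F test; 0.0684% of genes called), and 0.00449 once the number entered as a block. In POP10 over both sexes it was called with library weights, at 1.38 and an adjusted p of 0.0128, and without number 3, at 1.29 and an adjusted p of 0.0163, and was not called in the other 15 of 17 alternatives, over all of which its adjusted p ran from 0.0128 to 0.9999. In POP10 females alone, where 0.0293% of genes were called, fosab had a lower adjusted p than in POP10 over both sexes. The 8 control females ran from 7.58 to 23.3 RPM with a median of 13.0 and the 8 POP10 females from 11.8 to 264 with a median of 33.4, which overlap. The difference was 1.68 ± 0.42, a 3.21-fold higher geometric mean, with an adjusted p of 0.227, and 0.0328 with the replicate number as a block. In males 0% of genes were called and the fosab interval spanned 0. The difference between the sexes in this response was 1.20 ± 0.59 with an adjusted p of 0.999, and 0% of genes were called for it.

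**Figure D2:**
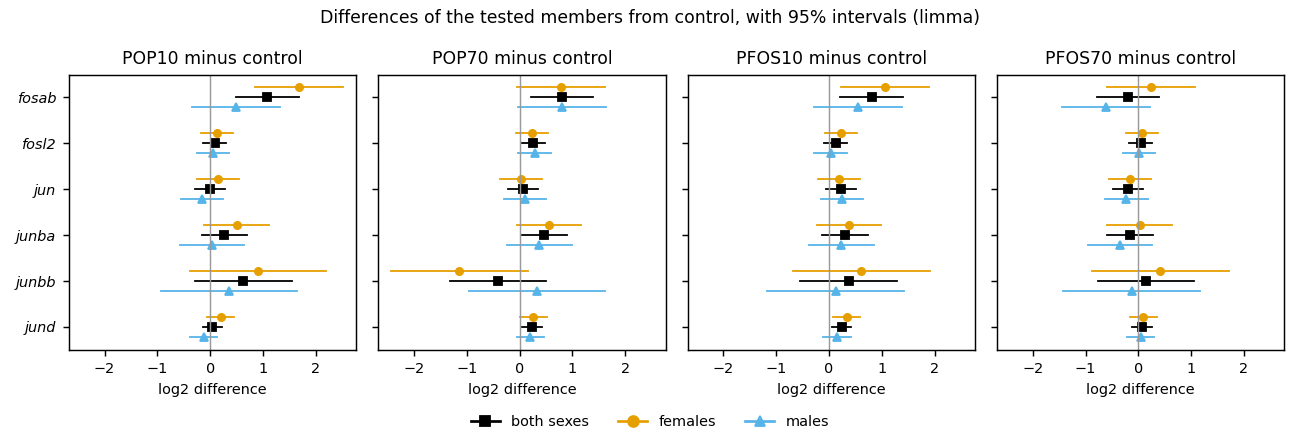
Difference of each tested member from control on the log2 scale in each exposure, as estimates with 95% intervals from limma, for both sexes together (black squares), females (orange circles) and males (blue triangles). The fosab estimate is the highest of the 6 in POP10, POP70 and PFOS10, the jun estimate lies near 0 in POP10 and POP70, and junbb has the widest intervals.

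The other fos genes followed in part. For fosb the 16 control fish ran from 0 to 1.52 RPM with a median of 0.256, POP10 fish from 0.127 to 28.6 with 0.580, POP70 fish from 0 to 45.8 with 1.36, PFOS10 fish from 0.249 to 52.6 with 1.65, and PFOS70 fish from 0 to 5.07 with 0.952. The median of every exposed group is above that of control, and the ranges overlap. Over the means of 4 fish, on the log2(RPM + 1) scale, which understates the change of low genes, fosb stood at 0.45 in control and at 1.74 in PFOS10. The 4 control means (0.23 to 0.86) and the 4 PFOS10 means (1.21 to 2.13) did not overlap, with an exact permutation p of 0.0286 (n = 4 against 4) and 0.0762 after adjustment over the 4 exposures. The PFOS10 mean of number 3, 1.87, rests on the male at 52.6 RPM: the other 3 fish averaged 0.58, below the highest control mean, so that without this fish the means overlapped, with an exact permutation p of 0.0571 (n = 4 against 4). With all fish fosb was the only member of the 9 whose means did not overlap with control in PFOS10, where 2.39% of the entries under the filter were higher without overlap. All 4 numbers gave a positive difference in POP70, PFOS10 and POP10 alike, and the paired exact p of 0.125 is the smallest that 4 pairs give. With all entries in the fit, fosb differed by 2.82 ± 0.64 in PFOS10, with an adjusted p of 0.184 (limma).

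For fosaa the control fish ran from 0.352 to 2.40 RPM with a median of 0.983 and the POP10 fish from 0.281 to 8.19 with a median of 1.72. Its 4 POP10 means (1.37 to 1.72 on the log2(RPM + 1) scale) lay above the 4 control means (0.83 to 1.27), with an exact permutation p of 0.0286 (n = 4 against 4) and 0.114 after adjustment. The non-overlap ended when any of 4 single fish of the 32 was left out. Among these is the POP10 female of number 3 at 8.19 RPM, without which that replicate averaged 0.87 and the exact permutation p was 0.143 (n = 4 against 4). With all fish fosaa was the only one of the 9 without overlap in POP10, where 0.987% of the entries under the filter were higher without overlap. The level of fosaa went against the leading principal component over tested genes, taken as a measure of RNA composition, with r = -0.77 over the 80 fish after removal of group means, and that of fosb with r = -0.61, and the part of this component in both results was not tested. For fosl1a the medians were 2.61 RPM for control, 2.86 for POP10, 5.57 for POP70, 4.13 for PFOS10 and 2.70 for PFOS70. In POP70 its difference was 1.05 ± 0.24 with all entries in the fit, with an adjusted p of 0.159 (limma) and an exact permutation p over replicate means of 0.0857 (n = 4 against 4). The steady gene fosl2 had medians of 56.8, 57.2, 65.7, 62.8 and 59.3 RPM in the same order, and its largest difference was 0.26 ± 0.11 in POP70, with a 95% interval of 0.04 to 0.47 and an adjusted p of 0.9999.

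Among the jun genes, jun had medians of 164 RPM for control, 163 for POP10, 158 for POP70, 187 for PFOS10 and 138 for PFOS70. Its differences from control lay between -0.20 ± 0.14 in PFOS70 and 0.22 ± 0.14 in PFOS10, and the 95% interval for POP10 ran from -0.29 to 0.28. For junba the medians were 31.8, 40.6, 44.9, 43.8 and 29.8 RPM in the same order, with a largest difference of 0.47 ± 0.22 in POP70. For jund they were 233, 230, 272, 258 and 234 RPM, with differences of 0.23 ± 0.09 in POP70 and 0.24 ± 0.09 in PFOS10. Both jund differences were positive in 4 of 4 numbers, with an exact permutation p of 0.114 each (n = 4 against 4). For junbb the medians were 127, 207, 112, 158 and 138 RPM. The junbb difference in POP70 was -0.41 ± 0.46 with all fish and 0.21 ± 0.26 without the single fish at 0 reads, so that its sign rests on that fish. In POP10 the junbb difference was 0.63 ± 0.46 with all fish and 0.63 ± 0.26 in the fit without that fish, with an adjusted p of 0.953 in each.

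The mixture was set beside PFOS alone at the level of the same number, and the high beside the low level of each. Of the 6 tested members 0 were called in any of these 4 comparisons, where PFOS70 against PFOS10 called 0.00977% of all tested genes and the other 3 called 0%. Between POP10 and PFOS10 fosab differed by 0.28 with a 95% interval of -0.31 to 0.87, and jund by -0.20 with an interval of -0.39 to -0.02 and an adjusted p of 0.701. Between POP70 and PFOS70 fosab differed by 0.99 ± 0.30 with an adjusted p of 0.968, and junba by 0.63 ± 0.22. Between PFOS70 and PFOS10 fosab differed by -0.996 ± 0.30, with an adjusted p of 0.9996 when all groups shared 1 estimate of spread and of 0.00149 when those 2 conditions were fitted alone. The jun difference there was -0.42 ± 0.14. These fits left out the number. With the number as a block 0 members were called in the 4 comparisons either (limma). The adjusted p of fosab was then 0.296 between POP70 and PFOS70. Between PFOS70 and PFOS10 it was 0.300 for fosab and 0.300 for jun. All 4 comparisons reuse the same groups of fish and are not independent of those with control.

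A second comparison was made between the sexes, over all 5 conditions. One member was called, fosab, where 1.38% of all genes were. The 40 females ran from 7.58 to 264 RPM with a median of 20.2, and the 40 males from 10.4 to 176 with a median of 33.9. The ranges overlap and the highest fish is a female. The female mean was 4.46 and the male mean 5.18 on the log2 scale, a difference of -0.71 ± 0.19, so that males stood 1.64-fold higher, with an adjusted p of 0.0271 (limma). With the number as a block the adjusted p was 0.00477 (limma). Taking each exposure replicate alone, the mean of the 2 males was above that of the 2 females in 18 of 20, though single males and females overlapped in some. The permutation p was 0.00024, which is not adjusted for the other genes. The male excess was 1.23 in control and in POP70, 0.71 in PFOS10, 0.38 in PFOS70 and 0.03 in POP10.

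The call is fragile, since the adjusted p ran from 0.00232 to 0.255 over 21 alternatives and passed the threshold in 10. The difference kept its sign in all 21, between -0.89 and -0.53. Summed levels of the 10 oligodendrocyte markers also differed between the sexes. They ran from 5225 to 12013 RPM in females and from 4621 to 16628 RPM in males, with medians of 7947 and 9766, and within groups they correlated with fosab at r = -0.31. Other lists differed in their means too, microglia and macrophages at 819 RPM in females and 980 in males, and red cells at 1197 and 1456. Some went the other way, among them skin, bone and cartilage at 222 and 179 RPM. The part of these lists in the sex difference was not tested. The junbb difference between the sexes was of like size, -0.71 ± 0.29, but was not called (adjusted p 0.275), and came to -0.46 ± 0.17 without the fish at 0. For fosl2, jun, junba and jund the differences lay between -0.21 ± 0.14 and 0.07 ± 0.06.

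Genes around AP-1 were read by list. Of 19 tested immediate-early genes outside the fos and jun families, 2 were lower in females and 0 higher: egr4, a zinc finger factor, by -0.78 ± 0.16 (adjusted p 0.00241), and klf2a, a Krüppel-like factor, by -0.44 ± 0.07 (adjusted p 1.17e-05). The list's median was -0.09 against -0.02 over all genes. Of 16 feedback genes of MAP kinase and calcium signalling, 2 were lower in females: dusp1, a MAP kinase phosphatase, by -0.52 ± 0.10 (adjusted p 0.000651), and rgs4, a brake on G protein signalling, by -0.47 ± 0.09 (adjusted p 0.000343), with a list median of -0.04. Of 20 genes known mainly from mammals as AP-1 targets, 1 was lower, gadd45ba, a stress response gene, by -0.37 ± 0.10 (adjusted p 0.0297), with a list median of -0.01. Of 11 AP-1 partners, 22 kinases, 13 factors at fos and jun promoters and 25 clock genes, 0 were called between the sexes.

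In the exposures calls among these lists fell on the immediate-early genes. For any difference among the 5 conditions 6 of the 19 were called (31.6%), where 0.0684% of all tested genes were. The list was chosen with earlier results of these data known, so its shares are a description and no test of enrichment. Over both sexes 2 were higher in POP10, egr1 by 0.70 ± 0.12 and ier2a by 1.16 ± 0.22, and ier2a was higher in PFOS10 by 1.16 ± 0.22, with 0 calls in POP70 and PFOS70. In POP10 females 3 were higher (15.8% of the list, against 0.0293% of all genes): egr1, egr4 and ier2a. By unadjusted p under 0.05, POP10 set apart 10 of the 19, POP70 and PFOS10 9 each, and PFOS70 2. The medians over the list were 0.22, 0.37, 0.36 and 0.03 for POP10, POP70, PFOS10 and PFOS70, where those over all genes lay between 0.00 and 0.03. These genes share their control fish across exposures. The 20 AP-1 linked target genes had 0 calls in all 4 exposures and medians between 0.03 and 0.05. The partners, kinases, promoter factors, feedback genes and clock genes had 0 calls in each exposure as well.

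The last comparison followed the exposure replicate number, which carries the age and the day. Here 5 of the 6 tested members were called (limma's F test), all but junbb, against 68% of all tested genes, so that a call as such says little about AP-1. Without the single fish at 0 reads junbb passed as well, with an adjusted p of 0.00709. The members did not share one order. For fosab, junba and fosl1a the mean was highest in number 3 and lowest in number 4. The fosab means were 5.40, 4.23, 4.89 and 4.76 on the log2 scale for numbers 3 to 6. The fosab medians were 28.2, 17.8, 33.1 and 29.3 RPM in the same order, highest in number 5. The 5 highest fosab fish of all 80 are fish of number 3. For jun, number 5 was the highest and number 6 the lowest, with means of 7.13, 7.43, 7.68 and 7.04.

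**Figure D3:**
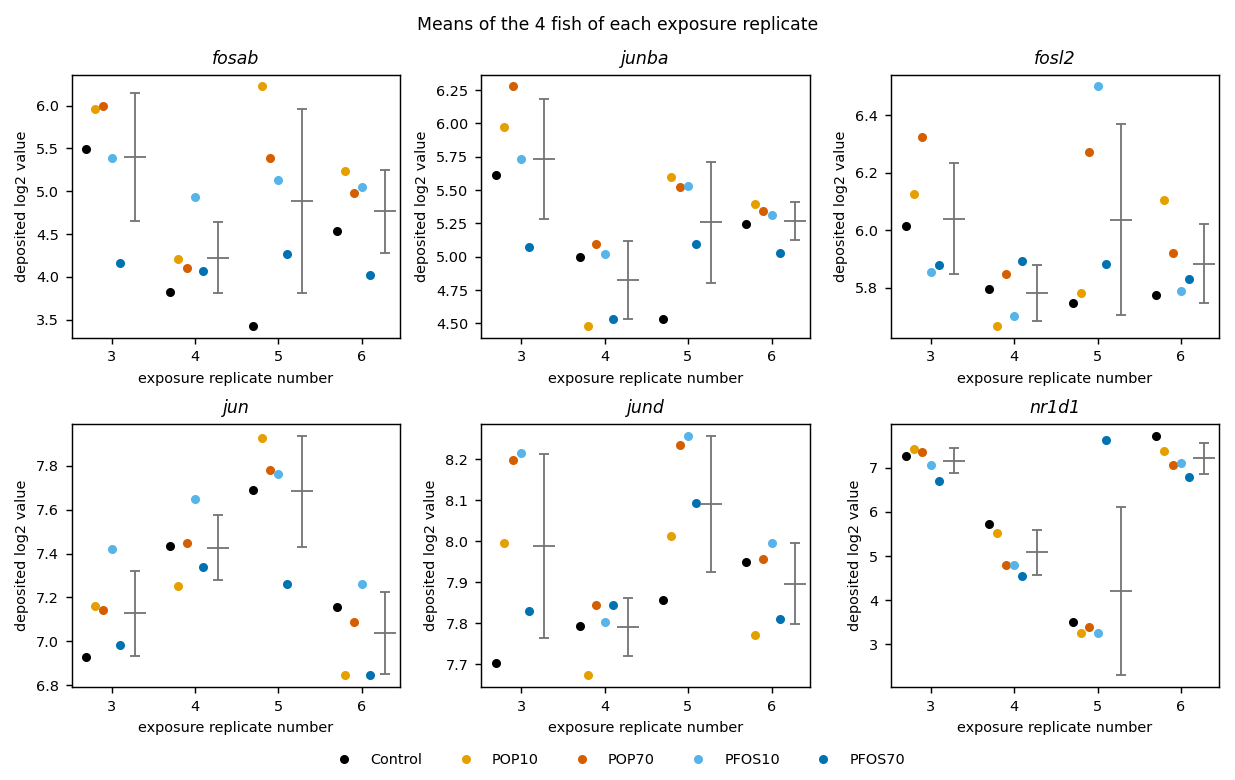
Mean log2 value of the 4 fish of each exposure replicate by exposure replicate number for 5 members and for the clock gene nr1d1; coloured points are the 5 conditions, and the grey bar is their mean with its standard deviation (n = 5). The 5 jun points of number 5 lie above those of number 6, the lowest of them only just, fosab and junba have their highest means in number 3, and the PFOS70 point of nr1d1 in number 5 lies far above the other 4.

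The jun level was the clearest. Its 20 fish of number 5 ran from 130 to 334 RPM with a median of 203, and its 20 fish of number 6 from 99.9 to 188 with a median of 130. Single fish overlap. The 5 replicate means of number 5 lay above the 5 of number 6, but barely so, since the lowest of number 5 was 7.2605 in PFOS70, the replicate that stood apart in nr1d1, and the highest of number 6 was 7.2593 in PFOS10. The difference was 0.64 ± 0.10, a 1.56-fold higher level in number 5, with an adjusted p of 1.30e-06 (limma; 25.1% of genes called) and an exact permutation p of 0.00794 (n = 5 against 5), or 0.0317 adjusted over the 6 pairs of numbers. Among all tested genes 6.21% were higher in number 5 without overlap. The difference was positive in 5 of 5 conditions, lay between 0.53 and 0.71 over 19 alternatives and was called in each of them. Against number 3 number 5 was higher by 0.56 ± 0.10, with an adjusted p of 1.75e-05 (33.9% of genes called).

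Between numbers 3 and 4, 5 members were called where 49.4% of all genes were. There fosab was higher in number 3 by 1.17 ± 0.23 (adjusted p 3.19e-05) and junba by 0.91 ± 0.16 (adjusted p 1.02e-05), while 6.9% of genes were called higher and 42.5% lower in number 3. The smaller differences were 0.26 ± 0.09 for fosl2 and 0.20 ± 0.07 for jund, both higher in number 3, and -0.30 ± 0.10 for jun, which was lower. Both fosab and junba were higher in 5 of 5 conditions, and their replicate means overlapped, with exact permutation p of 0.0238 and 0.0159 (n = 5 against 5). Between numbers 4 and 5 jund was called, at -0.30 ± 0.07 (adjusted p 0.0118, 5.89% of genes called). The 5 jund means of number 4 (7.67 to 7.85) lay below those of number 5 (7.86 to 8.26), as those of 2.2% of genes did, with an exact permutation p of 0.00794 (n = 5 against 5). That call was lost when the 4 fish of a replicate were allowed to correlate, with an adjusted p of 0.0528. Without the fish at 0 reads junbb was called there as well, at -0.77 ± 0.21 (adjusted p 0.0232).

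Clock genes moved with the number too. Between numbers 5 and 6, 19 of 25 tested clock genes were called, 4 higher and 15 lower in number 5, with a median of -0.94 against 0.03 over all genes. For nr1d1, a repressor of the clock, the means were 7.16, 5.08, 4.21 and 7.22 in numbers 3 to 6. The mean of number 5 includes the PFOS70 fish at 7.62, where the other 4 conditions had 3.26 to 3.52. The nr1d1 level went against that of jun, with r = -0.57 over the 80 fish after removal of group means. Within group and number the same r was 0.49, the opposite sign. Summed levels of neuron markers correlated with jun at r = 0.50 within groups, with means of 17823, 19323, 18882 and 18524 RPM in numbers 3 to 6. The part of neither in the jun difference was tested. Without the 4 PFOS70 fish of number 5 that stood apart in nr1d1, the count of called members between numbers 5 and 6 was 1 (jun) in place of 2 (jun and jund). The fit without them called 2694 of 10231 tested genes, and that with them 2564.

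The share of the total squares of a member that lay in each grouping differed between members. These shares are a description without a test. Variation between single fish alone also adds to each share, and more to a grouping with more levels. The number held 38.2% of the jun variance, 25.3% of that of junba, 16.3% of that of fosab and 4.41% of that of junbb. The condition held 25.7% for fosl1a, 23.4% for fosab and 10.6% for jun, and the sex 12% for fosab, 6.50% for junbb and under 3% for the other 7. Between the 2 fish of the same replicate and sex lay 18.1% of the fosab variance and 38.9% of that of junbb, and differences between the sexes that varied from replicate to replicate held 14.0% and 33.1%. The junbb shares rest largely on the fish at 0 reads, which alone carried 67.7% of the total squares. Without it the number held 14.7% of the junbb variance, and the spread between fish of the same replicate and sex 29.9%.

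A set of 4 fish, picked here by their levels and so described without a test, stood out across the families, all of number 3: 1 POP10 female (fish 2), 2 POP70 males and 1 PFOS10 male (fish 1). In each of them 7 or 8 of the 9 members were among the 8 highest values of the 80 fish. The next highest count was 3 members, in 5 fish, and 50 fish had 0. In these 4 fish fosab stood at 264, 165, 176 and 158 RPM, fosb at 28.6, 8.12, 45.8 and 52.6 RPM, junba at 151, 93.2, 150 and 126 RPM, and junbb at 625, 446, 504 and 410 RPM, in the order POP10 female, POP70 male 1, POP70 male 2 and PFOS10 male. These are the 4 highest fish of all for each of these genes. The c-Jun gene was not among the highest in them, with ranks of 31, 56, 47 and 16 of 80. The neuronal activity gene npas4a, a transcription factor outside the family, had the same 4 fish at the top, at 1672, 850, 1361 and 1213 RPM against a median of 125 over all fish. The other 2 activity markers did not have all 4 of these fish at the top. In the same order the ranks were 1, 4, 3 and 7 of 80 for egr1 and 1, 3, 2 and 9 for ier2a.

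**Figure D4:**
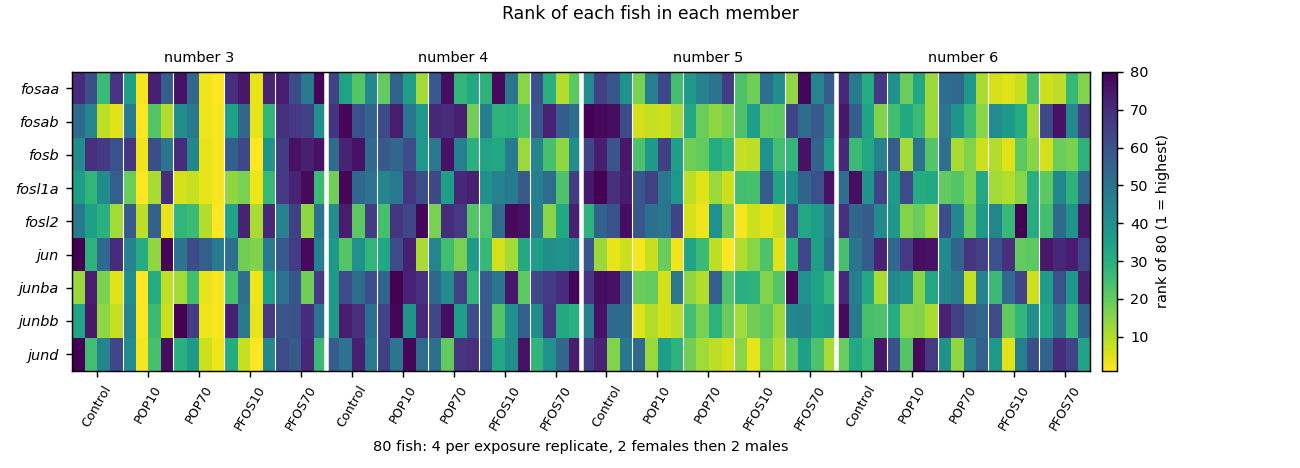
Rank of each fish among 80 (1, yellow, is the highest) for each of the 9 members, with fish ordered by exposure replicate number, then condition, then sex. Columns that are yellow in nearly all members but jun mark 4 fish of number 3, and no other column has more than 3 members among the 8 highest.

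A fish can be high in fosab and low in fosb. The control male fish 2 of number 3 was the 5th highest of 80 for fosab, at 123 RPM, and for junba, at 87.3 RPM. It had 0.298 RPM of fosb and 0.397 RPM of fosaa, below the median of both, which are 3 and 4 reads. Its summed markers were low in most lists, with ranks of 79 of 80 for neurons and 80 for glutamatergic and GABA neurons. Oligodendrocytes ranked 77, radial glia and astroglia 76, endothelium, pericytes and vessel wall 77, and meninges and connective tissue 78. The ranks were 72 for pituitary and 68 for skin, bone and cartilage. They were 53 for microglia and macrophages, 50 for red cells, 38 for retina and pineal, and 25 for neutrophils and lymphocytes. The 6th highest fish for fosab, a POP10 female of number 5, was the 2nd highest of all for jun, at 281 RPM.

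Another fish stood out by absence. The POP70 female fish 1 of number 3 had 0 junbb reads in a library of 11.4 Mreads, where 3 reads, taken as the limit that a count of 0 allows, correspond to 0.357 RPM. The next lowest fish had 35.7 RPM, about 100 times that limit. In the same fish 2 tested genes were at 0 reads, junbb and mhc2dab. Of the 12 tested genes at 0 in exactly 1 fish, junbb alone had a geometric mean of at least 100 RPM. The neighbouring genes hook2, trir and ubn2b had 10.5, 45.3 and 26.0 RPM in it, within the range of the other 79 fish.

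Relations between members were computed for all 36 pairs over the 80 fish, after removal of the 10 group means, on libraries that the members share. Permutations shuffled all 80 fish without keeping replicates or numbers apart, so their p-values can also reflect differences between numbers. Of the 36 correlations 30 were positive, and the 6 negative ones all involved jun. After adjustment over the 36 pairs 24 passed, 23 of them positive. The closest pair was fosab and junba, with Pearson's r = 0.78 and Spearman's rho = 0.65, a permutation p of 1e-05, the lowest value possible with 100000 resamples, and 3.6e-05 after adjustment. Within the 4 numbers this r lay between 0.41 and 0.81, and without the 2 fish farthest from the median of fosab it was 0.73. The pair of low genes fosaa and fosb followed with r = 0.74, rho = 0.74 and the same permutation p (0.58 to 0.87 within numbers, 0.71 without 2 fish). Both genes went against the leading principal component, with r = -0.77 for fosaa and -0.61 for fosb. The part of this component in their relation was not tested. For fosl2 and junba r was 0.65 and rho 0.61, with the same permutation p (0.43 to 0.79 within numbers).

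Some relations rested on number 3, in which the 4 high fish lie. For fosaa and fosab r was 0.74 in number 3 and between -0.07 and 0.07 in the others, with 0.23 over all 80 fish and an adjusted p of 0.0566. For fosab and fosl1a it was 0.65 in number 3 and between -0.02 and 0.43 elsewhere. The gene jun went its own way. Its r was -0.09 with fosab (permutation p 0.41), -0.29 with junba (permutation p 0.0093, adjusted 0.0168) and 0.03 with junbb (permutation p 0.81). The number, which held 38.2% of the jun and 25.3% of the junba variance, was not removed before these r were taken. With jund the gene jun stood at r = 0.47 and rho = 0.46 (permutation p 2e-05, with r of 0.19 to 0.74 within numbers and 0.39 without 2 fish).

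**Figure D5:**
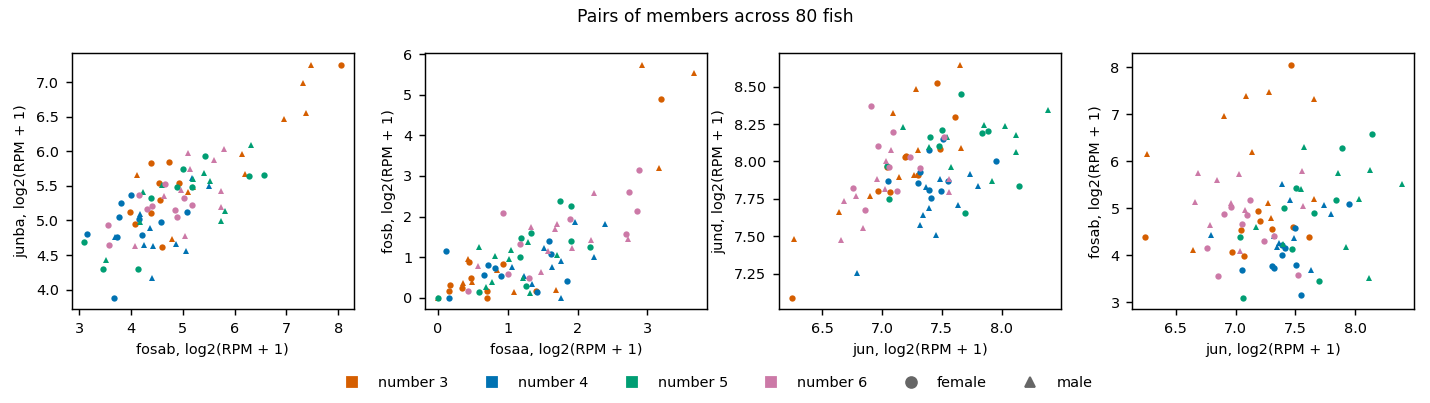
Levels of 4 pairs of members in 80 fish, as log2(RPM + 1) on both axes; colour gives the exposure replicate number and shape the sex. The points of fosab and junba and of fosaa and fosb rise together, those of jun and jund less closely, and those of jun and fosab show no common trend.

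The genes most like each tested member are given by r over the 80 fish after removal of group means, as a description. For fosab they were egr4 (r = 0.89), the orphan nuclear receptor gene nr4a1 (0.88) and ier2b (0.88), where the median over all genes was -0.05. For junba they were nr4a1 (0.79), the polo-like kinase gene plk2b (0.77) and the adhesion receptor gene adgrb1b (0.76). For fosl2 they were rtn4rl2a (0.79), the phosphatase gene dusp2 (0.77) and adgrb1b (0.77). For jun they were si:ch211-195b15.8 (0.86), the proteoglycan gene cspg5b (0.82) and the chromatin gene hmgb2a (0.80), and the highest of egr1, npas4a and ier2a was ier2a at 0.24. For jund they were tcima (0.72), the ETS factor gene etv5a (0.71) and zgc:122979 (0.61). For junbb the highest r were lower, with nr4a1 at 0.49, samd1b at 0.48 and btg2 at 0.46. These r include the fish at 0 junbb reads, which carried 67.7% of the total squares of junbb. By Spearman's rho, on which 1 fish weighs less, junbb stood at 0.67 with nr4a1, 0.64 with btg2 and 0.17 with samd1b. The rho of junba with nr4a1 was 0.63.

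The entry june, which overlaps HOOK3 on the opposite strand, was read beside the 4 jun members. It ran from 10.2 to 64.3 RPM around a median of 33.2. It was called in 0 of the 4 exposures, with differences between 0.23 ± 0.23 and 0.44 ± 0.23. In number 3 june was lower than in number 6 by -1.02 ± 0.17 (limma, adjusted p 2.50e-06, 36.2% of genes called). The means of fosab and junba were higher in number 3 than in number 6, by 0.64 ± 0.23 and 0.47 ± 0.16. By median fosab was not higher, at 28.2 RPM in number 3 and 29.3 RPM in number 6.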

How the data were processed

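The deposited table holds log2 normalized expression of each gene in each brain, per the file headers. Tools given in the submitters' processing notes are STAR 2.5.4b, Trim Galore 0.4.5, R 3.5.0 and DESeq2, with the build GRCz11. How reads were counted and scaled is not given in the sources used here. Values under 5000 reads were whole multiples of 1 read within 0.02, so reads could be recovered, and a count of 0 stands as 0.9 read. Of 22925 identifiers 22752 were in the gene name table.

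Genes with a geometric mean of at least 10 RPM (10231) entered limma 3.58.1, run in R 4.3.3, with 1 mean for each of 10 groups of 8 fish, a mean-variance trend, two-sided tests and Benjamini-Hochberg adjustment at 0.05; the number was added for comparisons of numbers. The fit recovered the largest known changes in simulated data, in which each fish varied on its own. The simulation held no effect of number or exposure replicate, so it does not cover variation that fish share. Low members were read as log2(RPM + 1). Exact permutation tests used means of 4 fish, with scipy 1.17.1; correlations between members were adjusted over the 36 pairs of all 9, more than the pairs of tested members first planned. The labels give each number 1 age, and same-numbered exposure replicates deviated together (median correlation 0.369 over 40 pairs, -0.148 between other numbers), so the number was taken to pair samples. No 2 libraries of the same group agreed within sampling noise.

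Named genes are the 9 members, the 3 genes most like each tested member, and up to 4 called genes of a list with the smallest p. The members and lists were chosen with earlier results of these data known. Alternatives were other filters, scalings, units, weights, blocks and left-out samples.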

Additional observations from a re-analysis of the deposited data

Results flagged for a closer look

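In 10 of 90 groups of 8 fish, 1 per member and group, the highest or lowest fish was separated from the rest by a large part of the group's range, where chance gives about 1 group in 20. The 10 groups involve only 5 distinct fish, all of number 3, and members share libraries, so these are not 10 independent cases. The POP10 female fish 2 lay above the other 7 by a share of the range of 0.566 for fosaa (8.19 RPM against 0.877 to 2.74), 0.626 for fosb (28.6 RPM against 0.127 to 2.83) and 0.716 for fosl1a (19.9 RPM against 2.40 to 4.70). The PFOS10 male fish 1 did so by 0.668 for fosab (158 RPM against 32.0 to 54.4), 0.775 for fosb (52.6 RPM against 0.684 to 2.67) and 0.622 for fosl1a (14.3 RPM against 2.55 to 5.16).

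In 4 groups the fish lay below the others. The POP70 female fish 1 lay below by 0.822 for junbb (0 RPM against 53.1 to 203), and the PFOS70 male fish 1 by 0.590 for junbb (68.4 RPM against 119 to 175). The control female fish 1 lay below by 0.563 for jun (74.8 RPM against 132 to 206) and by 0.528 for jund (135 RPM against 200.5 to 285).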

How the results depend on the processing

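For single members, 1327 values kept their direction and side of the threshold, 59 lost a call, 31 gained one and 23 changed sign, none of the last being a called difference. The junbb difference turned positive without the fish at 0 reads, from -0.41 to 0.21 in POP70 against control, from -1.14 to 0.0844 in POP70 females and from -0.55 to 0.0630 in POP70 against PFOS70. With library weights the sign turned for fosab in PFOS70 (0.0117), jun in POP70 (-0.0631), jun between the sexes (0.00803) and junbb in PFOS70 males (0.0789). It turned with the composition component for junbb in PFOS10 males (-0.0785) and with quantile normalization for fosl2 in PFOS70 (-0.00667). Counts of called members are followed in brackets by the called genes among all tested, 10231 unless given otherwise. With the replicate block, 1 member was called among the 5 conditions (9) and 1 in POP10 females (5), fosab in each. The fit without the block called 0 (7 and 3). With library weights 1 was called among the conditions (13), 1 in POP10 females (7) and 1 in POP10 over both sexes (7). The weights gave 0 between the sexes (430). Between numbers they gave 3 for 3 and 4 (5356), 0 for 3 and 6 (4415) and 5 for 4 and 5 (1480). A filter at 100 RPM leaves 3 members and 2751 genes. That filter gave 2 for any difference among the numbers (2051) and 0 between the sexes (32). Between numbers it gave 2 for 3 and 4 (1363) and 1 for 3 and 5 (899). It gave 0 for 3 and 6 (1002) and 1 for 4 and 6 (1255). With replicate means as the unit there was 0 between the sexes (34), 1 between 3 and 5 (1747) and 0 between 3 and 6 (2640). There was 0 between 4 and 5 (0), 1 between 4 and 6 (1754), and 1 between 5 and 6 (691). Correlation within exposure replicates (0.236 for conditions, 0.0818 for numbers) gave 0 (130), 1 (2538) and 1 (1523) for the last 3 pairs. Between 4 and 5 the composition component gave 4 (752), quantile normalization 4 (781) and voom 2 (565). Leaving out the fish at 0 junbb reads, an alternative added after seeing the data, gave 2 there (608). Quantile normalization (132) and voom (168) gave 0 between the sexes. Without a filter, over 23473 entries, there was 1 between 4 and 6 (3357) and 1 between 5 and 6 (3261). Total-read scaling (2514), voom (2454) and leaving out PFOS70 of number 5 (2694) each gave 1 between 5 and 6. Fitting PFOS70 and PFOS10 alone called 1 (5).

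Leaving out 1 number or condition gave 3 to 6 members for any difference among the numbers, 0 to 1 among the conditions and 0 to 1 between the sexes. Between numbers it gave 3 to 5 for 3 and 4, 1 to 3 for 3 and 5, and 0 to 2 for 3 and 6. It gave 0 to 6 for 4 and 5, 1 to 3 for 4 and 6, and 1 to 2 for 5 and 6. In POP10 it gave 0 to 1 in females and 0 to 1 over both sexes. Between 4 and 5 the 6 members came without number 3, where 1239 of 10231 genes were called. The fits with 0 members there called 109 to 319 genes, and those with 0 between the sexes 25 to 173. Among differences that changed sign, the same left-out sets gave -0.54 to 0.19 for fosab in PFOS70, -0.0790 to 0.22 for fosl2 in PFOS10, -0.0365 to 0.11 for fosl2 between the sexes, -0.0868 to 0.0960 for jun in POP10, -0.0987 to 0.0360 for jun between the sexes, -0.0481 to 0.11 for jund in POP10, -0.83 to 0.15 for junbb in POP70, -1.89 to 0.18 in POP70 females, -0.0841 to 0.33 in PFOS10 males and -0.46 to 0.29 in PFOS70 males. Leaving out each of 32 fish in turn, chosen after seeing the data, gave 0.97 to 1.42 for fosb in PFOS10, with overlap in 1 case, and 0.38 to 0.61 for fosaa in POP10, with overlap in 4. The cause of these moves was not tested, except that the stricter filter leaves fewer members. Quantile normalization moved the median of all genes by up to 0.138. The quasi-likelihood count test listed as an alternative was not run, since the deposited unit is log2. Counting error is large for fosaa and fosb, at a few reads in many fish.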
